A study of Homo sapiens with 6 samples.

Results

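The peroxiredoxins and thioredoxins are the cell's main thiol-based system for removing peroxides, and they were followed here as 10 genes: PRDX1, PRDX2, PRDX3, PRDX4, PRDX5, PRDX6, TXN, TXN2, TXNRD1 and TXNRD2. They were taken as a gene family by symbol, and all 10 were found among the 61661 identifiers of the read count table and passed the filter on low counts. The RNA came from K562, a human line from a pleural effusion of chronic myeloid leukemia in blast phase that carries erythroid and megakaryocytic traits. The 3 groups of 2 libraries were shCTR (genotype given as WT), shMETTL3 (METTL3 knockdown) and shMETTL14 (METTL14 knockdown), from cells grown in RPMI1640 with serum and antibiotics and collected in logarithmic growth. According to the study's methods, stable lines were made with lentivirus carrying a U6-driven hairpin, GFP and a puromycin marker, with a nonsense sequence in the control. That description covers shCTR and shMETTL3, and for shMETTL14 only the labels speak. METTL3 and METTL14 form the complex that writes N6-methyladenosine (m6A) on mRNA, and the comparisons ask how the mRNAs of the peroxide-removing system stood when either subunit was knocked down.

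A peroxiredoxin attacks hydrogen peroxide with one particular cysteine, the peroxidatic cysteine, and is then reduced by thioredoxin. Thioredoxin carries 2 cysteines in its active site, and thioredoxin reductase, a selenoprotein that draws on NADPH, returns it to the reduced state. PRDX1, PRDX2, PRDX6, TXN and TXNRD1 act mainly in the cytosol, PRDX3, TXN2 and TXNRD2 in mitochondria, PRDX4 in the endoplasmic reticulum, and PRDX5 mostly in mitochondria but also in peroxisomes and cytosol. PRDX6 has a single catalytic cysteine and is reduced mainly through glutathione. In the erythroid lineage that K562 resembles, PRDX2 is among the most abundant proteins of red cells.

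The coding bases around the catalytic residues show how the genes are related. The windows of 27 bases below were read from GENCODE release 29 transcripts (GRCh38), with the codon of the peroxidatic cysteine in capitals.
PRDX1: ttcacctttgtgTGCcccacggagatc
PRDX2: ttcacttttgtgTGCcccaccgagatc
PRDX3: ttcacctttgtgTGTcctacagaaatt
PRDX4: ttcacatttgtgTGTccaactgaaatt
PRDX5: ttcacccctggaTGTtccaagacacac
PRDX6: tttaccccagtgTGCaccacagagctt
Of the 27 bases, 25 in PRDX2, 22 in PRDX3, 21 in PRDX4, 19 in PRDX6 and 15 in PRDX5 were those of PRDX1. The PRDX1 window, around codon 52, is at chr1:45515746-45515772 on the minus strand in exon 3 of 6, and the PRDX6 window, around codon 47, is at chr1:173481357-173481383 on the plus strand in exon 2 of 5. The PRDX2 window, around codon 51, is at chr19:12801008-12801034 on the minus strand. Those of PRDX3 (around codon 108), PRDX4 (124) and PRDX5 (100) each cross an exon junction.

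In the thioredoxins the capitals mark the codons of both active-site cysteines, and in the reductases the TGA codon that is read as selenocysteine instead of as a stop.
TXN: gccacgtggTGTgggcctTGCaaaatg
TXN2: gcacagtggTGTggacccTGCaagatc
TXNRD1: agcatcctccaggctggctgcTGAggt
TXNRD2: gaccccacggtgacaggctgcTGAggg
TXN and TXN2 shared 20 of these 27 bases, and TXNRD1 and TXNRD2 shared 15. The TXN window, around codon 32, is at chr9:110251376-110251402 on the minus strand. The selenocysteine codon is number 648 of 649 in TXNRD1, at chr12:104348392-104348418 on the plus strand, and number 523 of 524 in TXNRD2, at chr22:19877108-19877134 on the minus strand. All of these windows are coding sequence, and none lies in a UTR.

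Library totals ran from 19292574 to 20115304 reads, and each of the 10 genes had between 1689 and 8838 reads in every library. The labels were checked on the targets: reads for METTL3 numbered 1788 and 1728 in shCTR against 1031 and 938 in shMETTL3 (log2 fold change -0.87, adjusted p = 3.44e-07). Reads for METTL14 numbered 656 and 655 in shCTR against 375 and 404 in shMETTL14 (log2 fold change -0.76, adjusted p = 1.40e-05). Adjusted p-values come from the quasi-likelihood test of edgeR, adjusted by Benjamini-Hochberg over 17686 genes, and a gene below 0.05 was called. All 10 erythroid and megakaryocytic markers examined were above 3 reads in all 6 libraries, whereas the summed T cell and B cell markers did not exceed 6.04 and 3.72 CPM (counts scaled to library size, here with edgeR's TMM factors). S100A8, a granulocyte marker, was at 0 reads in every library. The monocyte markers differed: CD14 had 1 to 3 reads and ITGAM 8 to 17, but LYZ had 310 to 1273. The labels do not say whether the libraries of a group came from separate cultures, so the p-values measure the spread between these libraries, which may be technical. In bulk RNA, fewer cells of a type and less RNA per cell cannot be told apart.

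All 10 mRNAs were abundant. Per kilobase of the longest transcript, their shCTR levels lay between the 92.4th and the 99.0th percentile of the genes tested. TXN was highest, at 267 ± 1.31 CPM per kilobase (SD, n = 2), followed by PRDX6 at 258 ± 3.05, PRDX5 at 224 ± 23.1 and PRDX1 at 190 ± 2.74. The next levels were those of PRDX4 at 95.0 ± 4.88, TXNRD1 at 86.0 ± 4.75, PRDX3 at 73.1 ± 0.648 and PRDX2 at 69.1 ± 6.91. TXN2, at 59.6 ± 4.38, and TXNRD2, at 51.9 ± 4.77, were lowest. Between neighbours in this order the shCTR libraries overlapped for PRDX3 and PRDX2, and for no other pair. With the union of all annotated exons as length, TXN, PRDX6, PRDX5 and PRDX1 were again the 4 highest and TXNRD2 the lowest, but PRDX5 came first, and among the middle genes the order changed. 

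**Figure D1:**
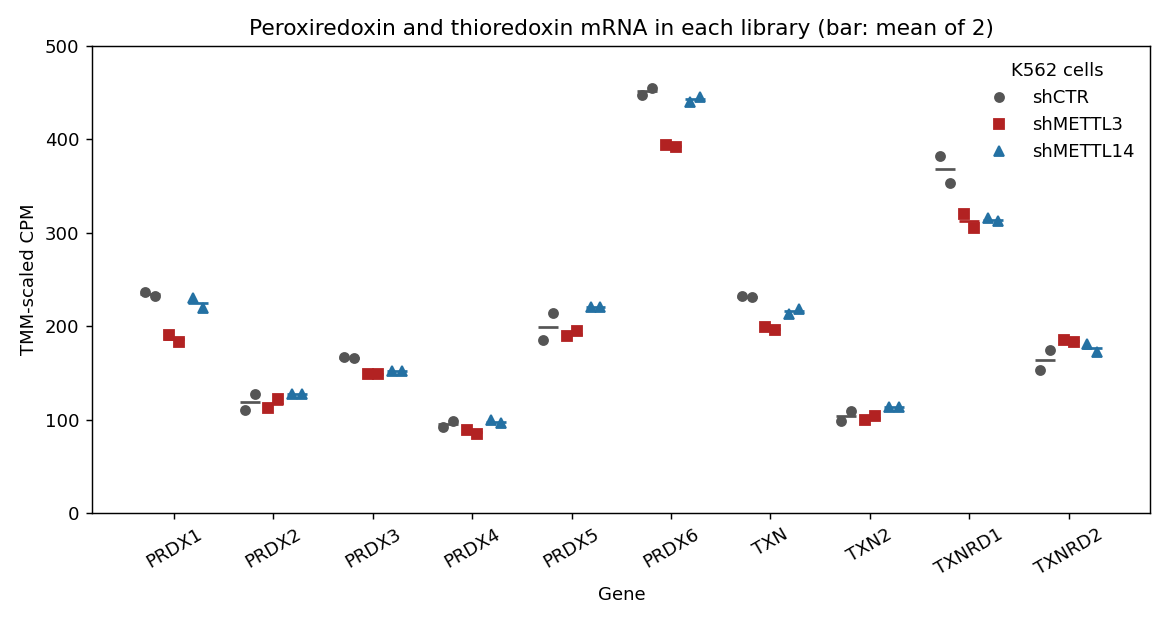
TMM-scaled CPM (linear axis from 0) of the 10 genes in each library, with 2 points per group and a bar at their mean. PRDX6 was between 392 and 455 in all 6 libraries. For PRDX1, PRDX3, PRDX4, PRDX6, TXN and TXNRD1 both shMETTL3 points lie below both shCTR points, as for 27.3% of all genes tested.

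In METTL3 knockdown cells, PRDX1, PRDX6, TXN and TXNRD1 were called lower, and none of the 10 was called higher. With edgeR, 4 of 10 were called, beside 16.5% of all genes tested (7.73% lower and 8.73% higher). DESeq2 called the same number, 4 lower and 0 higher, and with scaling by library size alone 3 were lower and 1 higher. At an unadjusted p under 0.05, 6 were lower and 1 (TXNRD2) was higher, beside 29.9% of all genes tested. The median log2 fold change of the 10 was -0.15, beside 0.003 for all genes tested.

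PRDX1, an abundant cytosolic peroxiredoxin, moved most. It stood at 237 and 232 CPM in shCTR and at 190 and 183 CPM in shMETTL3. Both knockdown libraries were lower than both controls, and the gap between the groups was wider than the spread within either. The log2 fold change was -0.33 (95% interval -0.45 to -0.20, standard error 0.0598, adjusted p = 0.000838), and the level fell by 20.4%. It was past the threshold in 14 of 14 alternative settings, with values from -0.36 to -0.27.

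PRDX6, the peroxiredoxin with a single catalytic cysteine and a phospholipase activity, stood at 448 and 455 CPM in shCTR and 394 and 392 CPM in shMETTL3. The groups did not overlap, and the log2 fold change was -0.20 (95% interval -0.31 to -0.09, adjusted p = 0.0161). Once a trend on GC content and gene length had been removed from each library, the value was -0.12 (adjusted p = 0.0513). The call was also lost with scaling by library size alone (-0.14, adjusted p = 0.0755), without shMETTL3-1 (-0.20, adjusted p = 0.117) and without shMETTL3-2 (-0.19, adjusted p = 0.166).

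TXN, the cytosolic thioredoxin that reduces peroxiredoxins and ribonucleotide reductase, stood at 233 and 231 CPM in shCTR and at 199 and 196 CPM in shMETTL3. Here too the groups did not overlap, and the log2 fold change was -0.23 (95% interval -0.35 to -0.11, adjusted p = 0.00966). TXN had the lowest GC content of the 10 genes, 42.8%, and with the GC and length trend removed its value was -0.10 (adjusted p = 0.153). Without shMETTL3-1 the value was -0.24 (adjusted p = 0.0716), and without shMETTL3-2 it was -0.22 (adjusted p = 0.132).

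TXNRD1, the cytosolic reductase that recharges TXN, stood at 382 and 353 CPM in shCTR and 320 and 305 CPM in shMETTL3. The 2 controls lay further apart than those of TXN, but still above both knockdown libraries. Its log2 fold change was -0.24 (95% interval -0.36 to -0.11, adjusted p = 0.0100), and -0.20 (adjusted p = 0.00351) with the GC and length trend removed. Without shMETTL3-2 it was -0.20 and not past the threshold (adjusted p = 0.176).

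The mitochondrial members were not called. PRDX3, which takes up most mitochondrial peroxide, stood at 168 and 165 CPM in shCTR and at 149 and 149 CPM in shMETTL3. The libraries did not overlap, and the log2 fold change of -0.16 (95% interval -0.29 to -0.04) missed the threshold at an adjusted p of 0.0712. Without shCTR-2 it was -0.17 and past the threshold (adjusted p = 0.0489), and with the GC and length trend removed it was -0.082 (adjusted p = 0.242). TXNRD2, the mitochondrial reductase, was the single member with a positive value: 153 and 174 CPM in shCTR against 185 and 183 CPM in shMETTL3, a log2 fold change of 0.17 (95% interval 0.03 to 0.31, adjusted p = 0.0976). It was past the threshold without shCTR-2 (0.26, adjusted p = 0.00619) and with library size alone (0.22, adjusted p = 0.0274), and at 0.01 (adjusted p = 0.869) with the GC and length trend removed. Without shCTR-1 it was 0.073 (adjusted p = 0.500). TXNRD2 had the highest GC content of the 10 genes, 62.6%.

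For the remaining mitochondrial genes the shCTR libraries spanned the knockdown. PRDX5 had 185 and 214 CPM in shCTR and 189 and 195 CPM in shMETTL3, a log2 fold change of -0.05 (95% interval -0.20 to 0.09). TXN2, the mitochondrial thioredoxin, had 98.1 and 109 CPM in shCTR and 100.1 and 104 CPM in shMETTL3, a log2 fold change of -0.02 (95% interval -0.16 to 0.12). The intervals do not show that either gene was unchanged, only that a fall of the size seen for PRDX1 lies outside them.

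PRDX2, the red cell peroxiredoxin, was the cytosolic member that was not called. It stood at 110 and 127 CPM in shCTR and 112 and 122 CPM in shMETTL3, with overlap and a log2 fold change of -0.02 (95% interval -0.17 to 0.13). PRDX4, which works in the endoplasmic reticulum, stood at 92.0 and 99.0 CPM in shCTR and at 88.7 and 84.3 CPM in shMETTL3. Its groups did not overlap, but the log2 fold change of -0.14 (95% interval -0.28 to -0.0026) was not past the threshold (adjusted p = 0.158).

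**Figure D2:**
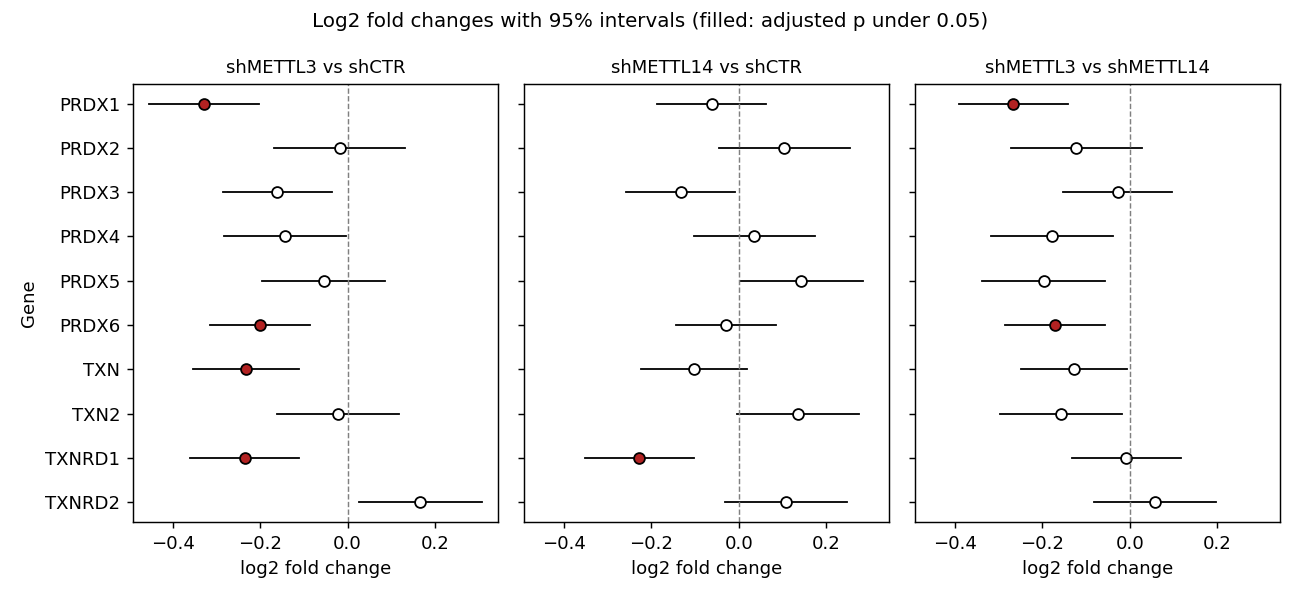
Log2 fold changes (dots) with 95% intervals (lines) of the 10 genes in the 3 comparisons, from edgeR, with filled dots for an adjusted p under 0.05. In shMETTL3 against shCTR, 4 genes are filled, all to the left of 0, in shMETTL14 against shCTR TXNRD1 alone is filled, and in shMETTL3 against shMETTL14 PRDX1 and PRDX6 are.

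Grouped by compartment, a grouping made from general knowledge with these values known, 4 of 5 cytosolic genes were called lower in shMETTL3 with a median log2 fold change of -0.23. None of the 4 mitochondrial genes was called by edgeR or DESeq2 (median -0.04), although 1 was higher and 1 lower at an unadjusted p under 0.05. Of all genes tested, edgeR called 16.5% (7.73% lower and 8.73% higher), and 29.9% had an unadjusted p under 0.05. Beside such shares, the lack of a call among 4 genes does not set them apart from other genes. The summed level of the 5 cytosolic genes was 1404 ± 7.64 CPM in shCTR, 1207 ± 13.6 in shMETTL3 and 1325 ± 2.03 in shMETTL14 (SD, n = 2 each). That of the 4 mitochondrial genes was 633 ± 41.8, 627 ± 5.42 and 662 ± 6.89. The cytosolic sum thus fell outside the control spread in both knockdowns, while the mitochondrial sum of shCTR spread over more than the gap to either. In shMETTL14 the cytosolic genes did not move alike. TXNRD1 went from a mean of 368 to 314 CPM and TXN from 232 to 216. PRDX1 went from 234 to 224, PRDX6 from 452 to 443, and PRDX2 rose from 119 to 127. The sums were not corrected for GC content. With the GC and length trend removed, 2 of 5 cytosolic genes were called, beside 20.6% of all genes tested in that setting. The cytosolic median was then -0.12, against -0.07 for the mitochondrial genes. The difference between the compartments was not tested.

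The balance of the paired genes can be read as a ratio of CPM within each library, which is not per length, so that its change between groups is what it gives. TXNRD2 over TXNRD1 was 0.401 and 0.494 in shCTR, 0.577 and 0.601 in shMETTL3, and 0.573 and 0.552 in shMETTL14. TXN2 over TXN was 0.422 and 0.471 in shCTR, 0.503 and 0.530 in shMETTL3, and 0.534 and 0.520 in shMETTL14. In both pairs all 4 knockdown libraries lay above both controls, and no test was made of these ratios. The genes of a pair differ in GC content, 42.8% in TXN against 56.2% in TXN2 and 44.8% in TXNRD1 against 62.6% in TXNRD2. With the GC and length trend removed, the log2 shift of TXN2 relative to TXN went from 0.21 to 0.038 in shMETTL3 and from 0.24 to 0.18 in shMETTL14. That of TXNRD2 relative to TXNRD1 went from 0.40 to 0.22 and from 0.34 to 0.26. PRDX3 over PRDX1 was 0.708 and 0.714 in shCTR, 0.783 and 0.814 in shMETTL3, and 0.661 and 0.692 in shMETTL14. For this pair shMETTL3 lay above the controls and shMETTL14 below them. PRDX2 over PRDX1, a pair of cytosolic genes, was 0.466 and 0.548 in shCTR, 0.589 and 0.667 in shMETTL3, and 0.554 and 0.583 in shMETTL14. For that pair, and for PRDX5 over PRDX1, all 4 knockdown libraries again lay above both controls. The pattern was thus not limited to mitochondrial genes set over cytosolic ones.

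In METTL14 knockdown cells, TXNRD1 alone was called. With edgeR, 1 of 10 genes was lower and 0 higher, beside 6.69% of all genes called (3.26% lower, 3.43% higher). DESeq2 also called 1 lower and 0 higher. At an unadjusted p under 0.05, PRDX3 and TXNRD1 were lower and PRDX5 higher, 3 of the 10 beside 20.7% of all genes tested. Both knockdowns were set against the same 2 shCTR libraries, so their values are not independent of each other.

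TXNRD1 stood at 316 and 312 CPM in shMETTL14, below the controls at 382 and 353 CPM. Its log2 fold change was -0.23 (95% interval -0.35 to -0.10, standard error 0.0595, adjusted p = 0.0246), and -0.21 (adjusted p = 0.00608) with the GC and length trend removed. The call did not hold without shCTR-1 (-0.17, adjusted p = 0.103), shMETTL3-1 (-0.23, adjusted p = 0.0518), shMETTL3-2 (-0.23, adjusted p = 0.0509), shMETTL14-1 (-0.24, adjusted p = 0.181) or shMETTL14-2 (-0.22, adjusted p = 0.179). The shMETTL3 libraries enter because all 6 share one estimate of the spread.

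PRDX1 stood at 230 and 219 CPM in shMETTL14, just below the controls, with a log2 fold change of -0.06 (95% interval -0.19 to 0.06, adjusted p = 0.611). PRDX6, at 440 and 446 CPM, had a log2 fold change of -0.03 (95% interval -0.14 to 0.09). TXN, at 213 and 219 CPM, had -0.10 (95% interval -0.22 to 0.02, adjusted p = 0.328). Each of these 3 was below both controls in both libraries without passing the test. In all, 5 members lay below both controls in both shMETTL14 libraries and 3 above, beside 23.9% and 25.0% of all genes tested (48.9% in either direction). In shMETTL3 these numbers were 6 below and 1 above, beside 27.3% and 28.7% (56.0% in either direction).

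PRDX3, at 152 and 152 CPM, had a log2 fold change of -0.13 (95% interval -0.26 to -0.01, adjusted p = 0.206). PRDX5, at 221 and 220 CPM, had 0.14 (95% interval 0.0019 to 0.28, adjusted p = 0.234). TXN2, at 114 and 114 CPM, had 0.14 (95% interval -0.0038 to 0.28, adjusted p = 0.256), and TXNRD2, at 181 and 172 CPM, had 0.11 (95% interval -0.03 to 0.25, adjusted p = 0.389). Without shCTR-2, PRDX5 (0.25, adjusted p = 0.0113), TXN2 (0.21, adjusted p = 0.0453) and TXNRD2 (0.20, adjusted p = 0.0419) were called higher. Without shCTR-1 the same genes were at 0.041 (adjusted p = 0.785), 0.062 (adjusted p = 0.677) and 0.017 (adjusted p = 0.928). PRDX2, at 127 and 128 CPM, had 0.10 (95% interval -0.05 to 0.25) and 0.0050 without shCTR-1, and PRDX4, at 99.7 and 96.0 CPM, had 0.04 (95% interval -0.10 to 0.17).

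The knockdowns were also compared directly. In shMETTL3 against shMETTL14, PRDX1 and PRDX6 were called lower, 2 of 10 genes beside 12.1% of all genes tested (5.49% lower, 6.65% higher). No member was called higher by edgeR or DESeq2, and at an unadjusted p under 0.05 the number lower was 6 and the number higher 0, beside 25.0% of all genes tested. PRDX1 had 190 and 183 CPM against 230 and 219 CPM, a log2 difference of -0.27 (95% interval -0.39 to -0.14, standard error 0.0599, adjusted p = 0.00497). The PRDX1 call was lost without shMETTL3-2 (-0.23, adjusted p = 0.121) and without shMETTL14-1 (-0.23, adjusted p = 0.107). PRDX6 had 394 and 392 CPM against 440 and 446 CPM, a log2 difference of -0.17 (adjusted p = 0.0462). This value was past the threshold in 7 of 14 alternatives, and lost with library size alone (adjusted p = 0.103), no filter on low counts (0.0712) and the GC and length trend removed (0.0561), and without shMETTL3-1 (adjusted p = 0.234), shMETTL3-2 (0.291), shMETTL14-1 (0.171) or shMETTL14-2 (0.242).

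For TXNRD1 the knockdowns did not differ beyond their spread: 320 and 305 CPM in shMETTL3 overlapped with 316 and 312 CPM in shMETTL14, and the log2 difference was -0.01 (95% interval -0.13 to 0.12, adjusted p = 0.957). PRDX5 had -0.20 (95% interval -0.34 to -0.06, adjusted p = 0.0629) and TXN2 had -0.16 (95% interval -0.30 to -0.02, adjusted p = 0.142). With the GC and length trend removed both were past the threshold, at -0.22 (adjusted p = 0.00295) and -0.17 (adjusted p = 0.0244). PRDX4 had -0.18 (adjusted p = 0.0939), TXN -0.13 (adjusted p = 0.175), PRDX2 -0.12 (adjusted p = 0.313), PRDX3 -0.03 (adjusted p = 0.824) and TXNRD2 0.06 (adjusted p = 0.648). Both shMETTL3 libraries lay below both shMETTL14 libraries for 8 members and above for 1, beside 28.3% and 28.4% of all genes tested (56.7% in either direction).

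Measures other than the groups moved with these values. Between the 2 shCTR libraries, the GC-rich members (56.2% to 62.6% GC) were higher in shCTR-2 than in shCTR-1, by 0.20 for PRDX2, 0.21 for PRDX5, 0.15 for TXN2 and 0.19 for TXNRD2 on the log2 scale. The other 6 genes (42.8% to 51.7% GC) differed by -0.11 to 0.10. Between the 2 shMETTL14 libraries no member differed by more than 0.071 in either direction. In shMETTL3 the members with the largest falls had a GC content of 42.8% to 51.4%, and with the GC and length trend removed the calls of PRDX1 and TXNRD1 were kept and those of PRDX6 and TXN were not.

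**Figure D3:**
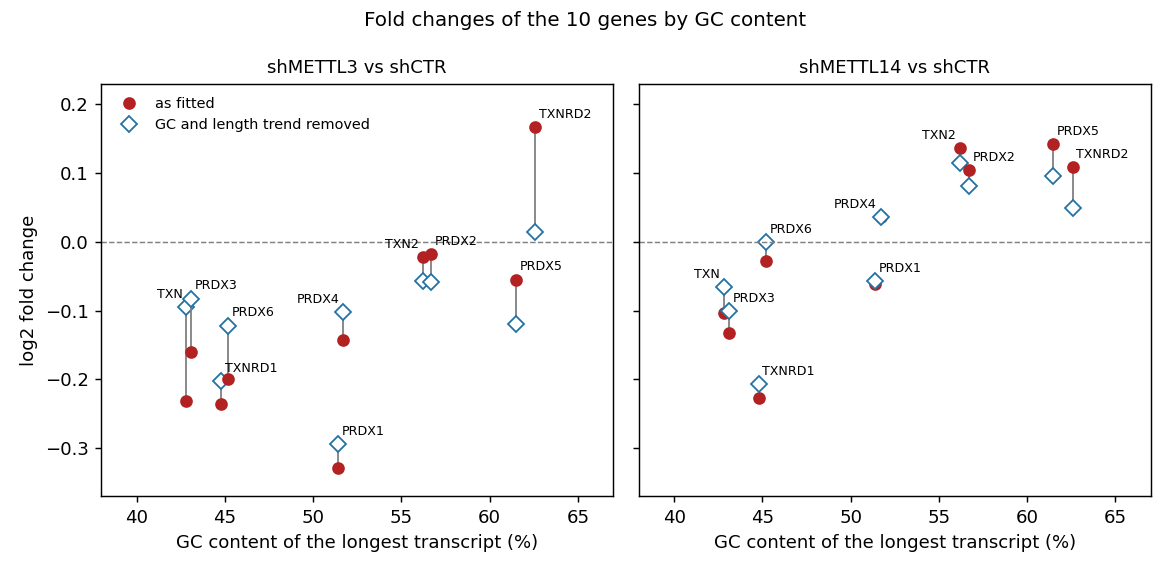
Log2 fold change (vertical axis) against GC content of the longest transcript in percent (horizontal axis) for the 10 genes in either knockdown, as fitted (filled circles) and with a GC and length trend removed from each library (open diamonds). Removing the trend moved TXN from -0.23 to -0.10 and TXNRD2 from 0.17 to 0.01 in shMETTL3, and moved PRDX1 from -0.33 to -0.29.

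Erythroid markers also stood at other levels in shMETTL3. The summed level of the 10 erythroid and megakaryocytic markers was 1741 to 1753 CPM in shCTR, 1957 to 1959 CPM in shMETTL3 and 1765 to 1786 CPM in shMETTL14. Within the list, HBE1, embryonic epsilon globin, had 3904 and 4214 reads in shCTR against 7485 and 8685 in shMETTL3, whereas TFRC, GATA1 and TAL1 had log2 fold changes of -0.12, 0.09 and -0.07. The part of these shifts in the lower levels of PRDX1, PRDX6, TXN and TXNRD1 was not tested. The 3 monocyte markers summed to 42.7 to 44.4 CPM in shCTR, 16.0 to 17.4 in shMETTL3 and 60.6 to 66.0 in shMETTL14, nearly all of it LYZ. Their part was likewise not tested.

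Reads counted for near-identical copies were few, and reads that align to more than one place were not measured here. The 19 annotated pseudogenes of the 10 genes held at most 0.200% of their parent gene's reads. PRDX1P1, with 6 to 12 reads a library, was the one above 10 reads in any library, and adding pseudogene reads to the parents changed no call. On the opposite strand, exons of MMACHC cover 379 of the 1522 exonic bases of PRDX1, and an antisense gene covers 296 of 2093 in PRDX2. Whether the counting used strand is not given in the sources used here, so reads in those stretches cannot be assigned with certainty.

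The rest of the thioredoxin system was read from 6 lists of 59 genes, of which 57 were tested, MSRB3 and ME3 having too few reads. In shMETTL3, 5 list genes were higher and 9 lower, with a median of -0.04, and in shMETTL14, 3 were higher and 4 lower, with a median of -0.06. With scaling by library size alone, the split in shMETTL3 was 8 higher and 4 lower. The 14 calls in 57 genes stand beside 16.5% of all genes called, and the 7 calls beside 6.69%.

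Genes that restrain or repair the system were higher or not called in shMETTL3. TXNIP, the protein that binds and inhibits thioredoxin, had 4895 and 4475 reads in shCTR against 6043 and 6689 in shMETTL3, so that the log2 fold change was 0.41 (adjusted p = 0.000128). In shMETTL14 it had 4741 and 4559 reads (-0.02, adjusted p = 0.879), and the difference between the knockdowns was 0.44 (adjusted p = 6.37e-05). SESN3, a sestrin, had 122 and 101 reads in shCTR against 188 and 216 in shMETTL3 (0.83, adjusted p = 0.000738). SRXN1, sulfiredoxin, which reduces overoxidised peroxiredoxins, had 94 and 81 reads in shCTR against 110 and 101 in shMETTL3, and missed the threshold (0.24, standard error 0.185, adjusted p = 0.411). In shMETTL14 none of the 5 genes of this list was called by edgeR or DESeq2. At an unadjusted p under 0.05, 1 was higher and 1 lower, beside 20.7% of all genes tested.

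Of 16 relatives with a thioredoxin fold, 1 rose and 1 fell in shMETTL3, beside 16.5% of all genes called. NXN, nucleoredoxin, a thioredoxin-like protein of Wnt signaling, rose from 147 and 140 reads to 458 and 496, which is 1.70 on the log2 scale (standard error 0.115, adjusted p = 7.83e-09). In shMETTL14 it had 143 and 140 reads, and the difference between the knockdowns was 1.74 (adjusted p = 4.86e-09). TXNL1, a thioredoxin-like protein bound to the proteasome, fell from 1361 and 1267 reads to 1055 and 1144 (-0.29, adjusted p = 0.00741). In shMETTL14 none of the 16 was called by either tool. At an unadjusted p under 0.05, 0 were higher and 1 lower, beside 20.7% of all genes tested.

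In the parallel glutathione system, 4 of 9 genes fell and 1 rose in shMETTL3, beside 7.73% lower and 8.73% higher of all genes tested. GCLC and GCLM, the catalytic and modifier subunits of the enzyme that begins glutathione synthesis, had log2 fold changes of -0.43 (adjusted p = 0.00813) and -0.28 (adjusted p = 0.0182). GSR, glutathione reductase, had 2191 and 2160 reads in shCTR against 1853 and 1934 in shMETTL3 (-0.23, adjusted p = 0.0154). GLRX3, a cytosolic glutaredoxin that handles iron-sulfur clusters, had -0.26 (adjusted p = 0.00669). GLRX5, the mitochondrial glutaredoxin of iron-sulfur cluster assembly, was higher in shMETTL3 (0.18, adjusted p = 0.0485, and 0.0507 with DESeq2) and in shMETTL14 (0.28, adjusted p = 0.00697). GSR in shMETTL14, at 1910 and 1917 reads, was below both controls without passing the threshold (-0.20, adjusted p = 0.0636).

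Among 8 tested thioredoxin-dependent enzymes and clients, RRM2, the small subunit of ribonucleotide reductase, rose in shMETTL3. It went from 2162 and 2037 reads to 2913 and 3010 (0.47, adjusted p = 3.30e-05). In shMETTL14 it had 2282 and 2240 reads (0.09, adjusted p = 0.418), and the knockdowns differed by 0.37 (adjusted p = 0.000323). RRM1, the large subunit of the same enzyme, was not called in shMETTL3 (-0.06, adjusted p = 0.594). MSRB1, a selenoprotein that repairs oxidised methionine with electrons from thioredoxin, was higher in shMETTL14 (0.33, adjusted p = 0.00955) and had -0.18 in shMETTL3 (adjusted p = 0.122). The knockdowns differed by -0.51 (adjusted p = 0.000108).

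Of 11 tested genes that supply NADPH, 4 fell and 0 rose in shMETTL3 by edgeR, beside 7.73% lower and 8.73% higher of all genes tested. DESeq2 gave the same numbers for this list. At an unadjusted p under 0.05, 6 were lower and 1 was higher, beside 29.9% of all genes tested. NADK2, the mitochondrial NAD kinase, had 1848 and 1849 reads in shCTR against 1365 and 1435 in shMETTL3 (-0.43, adjusted p = 0.000141). The other 3 were IDH1 (-0.21, adjusted p = 0.0274), NNT (-0.19, adjusted p = 0.0401) and MTHFD2 (-0.20, adjusted p = 0.0238). With the GC and length trend removed, IDH1 (adjusted p = 0.0659) and NNT (adjusted p = 0.0594) were no longer called. In shMETTL14, IDH1 (-0.21, adjusted p = 0.0461), IDH2 (-0.29, adjusted p = 0.0158), ME2 (-0.34, adjusted p = 0.00776) and MTHFD2 (-0.34, adjusted p = 0.00116) fell.

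The selenocysteine machinery, which the reductases need for translation through their TGA codon, gave no call. In shMETTL3, shMETTL14 and the direct comparison, 0 of 8 genes passed the threshold with edgeR and with DESeq2. Of all genes tested, edgeR called 16.5%, 6.69% and 12.1%. At an unadjusted p under 0.05, 2 were higher and 1 lower in shMETTL3, 1 was higher in shMETTL14, and none differed between the knockdowns. The shares of all genes tested at that cut-off were 29.9%, 20.7% and 25.0%.

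**Figure D4:**
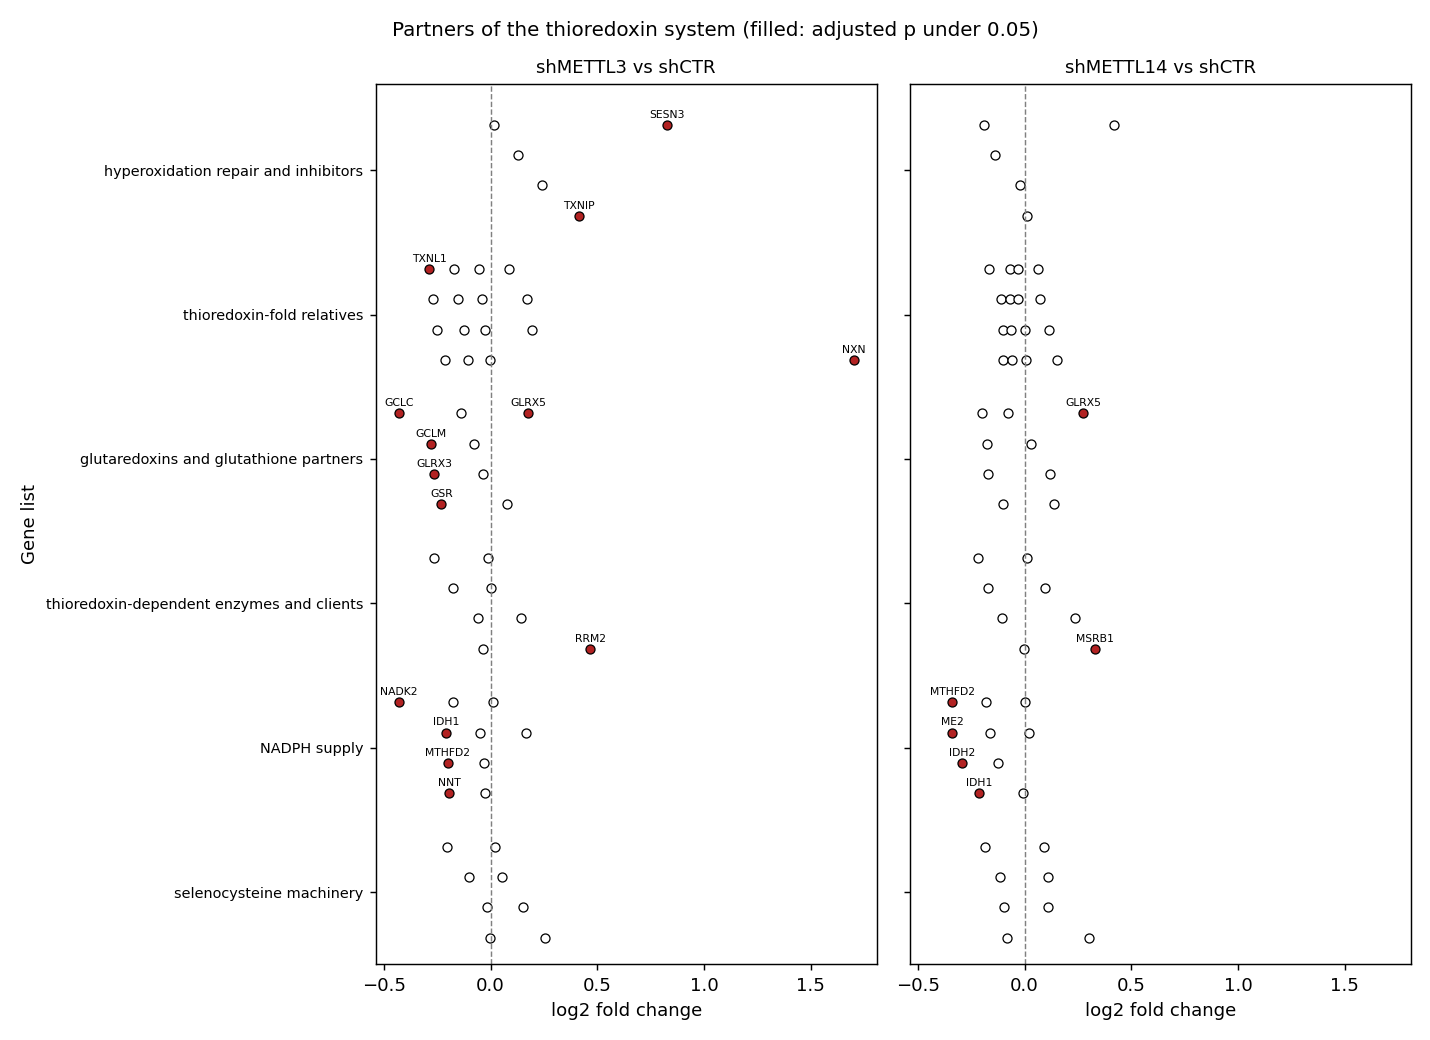
Log2 fold changes (horizontal axis) of the tested partner genes by list (vertical axis, points offset within a list for legibility, 1 tested gene not shown) in shMETTL3 and shMETTL14 against shCTR, with filled, named points for an adjusted p under 0.05. NXN at 1.70 and SESN3 at 0.83 stand furthest to the right in shMETTL3, GCLC and NADK2 at -0.43 furthest to the left, and no gene of the selenocysteine machinery is filled.

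The genes whose pattern came closest to that of PRDX1 were CREBZF, PAX6 and TOMM34, among 9962 genes with a mean of at least 10 CPM. Closeness was the Euclidean distance over the 6 libraries of log2 CPM centred on the shCTR mean, and it was 0.0559, 0.0593 and 0.0664. Their log2 fold changes against shCTR from the edgeR fit were -0.34, -0.30 and -0.34 in shMETTL3 and -0.08, -0.05 and -0.02 in shMETTL14.

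Promoter sequence was available for 7 of the 10 genes in a RefSeq table (GRCh38.p14, 300 bases for each start site), not including PRDX1, PRDX6 and TXN2. The core of the antioxidant response element, TGACNNNGC, which binds NRF2 and was searched on both strands, was in 13.3% of all 35116 promoters of this length. Of the 7 genes, TXNRD1 held it, in 2 of its promoters, and the matches are shown because TXNRD1 was the gene called lower in both knockdowns, with the match in capitals.
TXNRD1 chr12:104215670-104215698: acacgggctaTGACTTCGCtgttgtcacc
TXNRD1 chr12:104215761-104215789: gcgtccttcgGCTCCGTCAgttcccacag
TXNRD1 chr12:104286920-104286948: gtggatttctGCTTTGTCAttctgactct
All are written on the plus strand, the strand of the gene, and the latter 2 match on the opposite strand. The NRF1 site was searched because NRF1 is a regulator of nuclear genes for mitochondria. This GC-rich site was in 5.78% of all promoters and, of the 7 genes, in PRDX5 alone. The PRDX5 letters are likewise written on the plus strand, the strand of the gene, and match on the opposite strand.
PRDX5 chr11:64318080-64318108: tggccgctcGCGCCTGCGCagtggaggcg
A match describes these letters and is not evidence that a factor binds there.

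The commonest sequence context of m6A, written in DNA letters as GGACT, was counted in a window of 203 bases centred on the stop codon, where the mark is known to gather. It was present in 22.9% of the 11553 tested genes with such a window and in 0 of the 9 members with one (PRDX4 had none long enough). Over the whole transcript, the members held a median of 0.782 per kilobase, against 0.941 for all those genes. PRDX2 held the most, 4.05 per kilobase, followed by TXNRD2 with 2.84 and PRDX1 with 1.62, and PRDX3 and TXN held none. Methylation itself was not measured in these libraries.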

How the data were processed

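RNA-seq of K562 cells was analysed in 6 libraries, with groups and replicate numbers from the submitters' labels. The authors selected poly(A) RNA on oligo(dT) beads, primed it with random hexamers and deposited 1 table of raw counts, in which each value is a whole number of reads for a gene. The submitters' processing notes name HTSeq 0.6.1 and hg38, while the aligner, annotation and strand setting are not given in the sources used here. The table also held 986 identifiers outside the annotation (0.635% to 0.703% of a library's reads), which stayed in the totals. Symbols came from a gene name table (56558 identifiers) and GENCODE release 29 (497 more), which also gave coordinates, lengths and GC content on GRCh38, the build of hg38. Catalytic codons were located by translating each gene's longest coding sequence and finding the known active-site pattern.

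In R 4.3.3, edgeR 4.0.16 was run on the counts: 17686 genes passed filterByExpr (minimum count 10), libraries were scaled by TMM, and a quasi-likelihood fit of all 6 libraries with group as the only term gave the 3 comparisons, with Benjamini-Hochberg adjustment over all genes tested and a threshold of 0.05. CPM values are TMM-scaled. Library totals of 19292574 to 20115304 reads set the counting precision, and up to 3 reads was taken as the floor. PCR copies could not be removed, so counting error alone understates the error. Replicates differed by more than sampling noise (mean chi-square per gene 5.30 in shCTR, 3.04 in shMETTL3 and 2.55 in shMETTL14). The fit was tested on 3 simulated data sets of shMETTL3 against shCTR, with 17310 genes tested on average and 200 genes changed by a factor of 2. It called 76.3% of these, 96.1% of the changed genes averaging 50 counts or more, and 5.47% of its calls were unchanged genes. No trend on GC content or length was simulated, and the changes of the members were smaller (log2 fold change -0.33 for PRDX1, which moved most). These rates therefore do not describe calls of that size.

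The alternatives were DESeq2 1.42.0, its size factors in edgeR, library size alone, no low-count filter, fitting just the groups compared, a replicate block, each library left out in turn, a smooth trend on GC content and length removed from each library (mgcv 1.9.3, for the 94.2% of tested genes with both values), and pseudogene reads added to their parents. The members and lists were chosen with earlier results of these data known. Named were all members, METTL3, METTL14, list genes past the threshold in either knockdown against shCTR, SRXN1, TXNIP and GSR, pseudogenes of members above 10 reads, and the 3 genes nearest in pattern to the member that moved most. RRM1, and the markers and overlapping genes named beyond these, were chosen after their values were seen. Some genes that meet this rule are not reported here.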

Additional observations from a re-analysis of the deposited data

How the results depend on the processing

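Over 14 alternatives, PRDX1 kept its call in shMETTL3 against shCTR in all 14, TXNRD1 in 13, TXN in 11 and PRDX6 in 10, whereas TXNRD1 in shMETTL14 kept it in 9. With each library left out, the number of members called ranged from 1 to 6 in shMETTL3 against shCTR, from 0 to 4 in shMETTL14 against shCTR and from 0 to 5 between the knockdowns, and that of list genes from 7 to 18, from 1 to 9 and from 6 to 13. For members, the lowest numbers came without shMETTL3-2 (1) and shMETTL3-1 (2) in the first comparison, and without any library except shCTR-2 (4) in the second. Between the knockdowns they came without shMETTL3-2 or shMETTL14-1 (0) and shMETTL3-1 or shMETTL14-2 (1), and the highest without either shCTR library (5). For list genes, they came without shMETTL3-1 (7) or shMETTL3-2 (8), without shMETTL14-1 (1) or shMETTL14-2 (2), and between the knockdowns without any knockdown library (6 or 7). A group reduced to 1 library was assumed to vary like the others. With the GC and length trend removed, 2 members were called in shMETTL3 against shCTR, beside 20.6% of all genes tested in that setting. Between the knockdowns, 1 was called with library size alone, 1 with no filter on low counts and 5 with only the compared groups. DESeq2 called 1881, 763 and 1327 genes in the 3 comparisons, against 2912, 1184 and 2148 with edgeR, and with no filter the second was 766. Scaling by library size alone raised the share of calls that were higher from 53.0% to 71.7%, from 51.3% to 62.8% and from 54.8% to 65.0%, and the median of all genes by no more than 0.06.

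Same-numbered libraries correlated at 0.0614, 0.00511 and -0.0200 in their deviations from the group means over 17686 genes. Low values over all genes do not exclude a batch shared by replicate number, since counting noise can hide it. With the replicate number as a block, the members called were 4, 1 and 3, the addition being PRDX5 between the knockdowns (-0.20, adjusted p = 0.0291), and the list genes 15, 8 and 11. Of all genes tested, 3264, 1459 and 2478 were called with the block, against 2912, 1184 and 2148 without it.

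Changes of sign occurred 16 times, with no value past the threshold on either side (smallest adjusted p 0.420). With library size alone, PRDX2, PRDX5 and TXN2 in shMETTL3 against shCTR were 0.038, 0.0010 and 0.034, and PRDX3 and TXNRD1 between the knockdowns 0.0020 and 0.022. Without shCTR-1, PRDX4 in shMETTL14 against shCTR was -0.017, within a leave-one-out range up to 0.087. In shMETTL3 against shCTR, PRDX2, PRDX5 and TXN2 were 0.084, 0.051 and 0.052 without shCTR-2 and -0.12, -0.16 and -0.098 without shCTR-1, the ends of their leave-one-out ranges, and PRDX2 and TXN2 were 0.040 and 0.0031 without shMETTL3-1. TXNRD1 between the knockdowns ranged from -0.042 without shMETTL3-1 to 0.031 without shMETTL3-2. With the GC and length trend removed, PRDX6 in shMETTL14 against shCTR was 0.00030, and PRDX3, TXNRD1 and TXNRD2 between the knockdowns were 0.018, 0.0033 and -0.034. The cause of these changes was not tested.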
